A study of Mus musculus with 36 samples.

Results

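Integrins and laminins are the cell surface receptors and the secreted glycoproteins that join cells to the basement membrane. The genes described here were chosen by symbol as all integrin alpha chains, integrin beta chains, and laminin alpha, beta and gamma chains. This gave 37 of the 24284 genes with an expression value, namely 18 integrin alpha, 8 integrin beta, 5 laminin alpha, 3 laminin beta and 3 laminin gamma chains. They were followed through 12 RNA sequencing libraries of mouse embryonic stem cells (ESC), embryoid bodies, embryonic fibroblasts (MEF) and fibroblasts under reprogramming.

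An integrin receptor is a dimer of an alpha and a beta chain, and the alpha chain largely sets which matrix protein is bound. Itga3, Itga6 and Itga7 bind laminins, Itga5 binds fibronectin, and Itgav binds fibronectin and vitronectin. Itga1, Itga2, Itga10 and Itga11 bind collagens. A laminin is a trimer of an alpha, a beta and a gamma chain that is secreted by cells and polymerises into the sheet on which a basement membrane is built. In the early embryo, laminins carrying Lama1 or Lama5 are among the first matrix proteins made, and laminins carrying Lama5 are used as a culture substrate for pluripotent cells.

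The tested cells had the genotype MLL3-/-;MLL4-/-, called DKO, and were set against MLL3-/-;MLL4flox/flox cells, called f/f. MLL3 and MLL4, encoded by Kmt2c and Kmt2d, are histone methyltransferases that act at enhancers, and the series asks what MLL4 does in stem cells and in reprogramming. Both genotypes lacked MLL3, so no group with intact MLL3 enters any comparison here. Day-4 embryoid bodies, aggregates that differentiate in suspension, were made by 4 days of culture without the self-renewal factor LIF. DKO bodies, f/f bodies, DKO ESC and f/f ESC had 2 libraries each. Fibroblasts taken at day 20 of reprogramming, after Oct4, Sox, Klf4 and c-Myc were brought in with lentiviruses, had 1 library for each genotype. So did immortalised MEF. ESC were grown on irradiated fibroblast feeder cells. The labels do not say how many clones or lines each genotype stands for, nor whether replicates were separate cultures, so p-values measure the spread between these samples only.

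The libraries rested on 11366199 to 38264157 reads. Replicate 1 of the ESC and bodies was deposited as read counts and RPKM (reads scaled to transcript length and library size), and every other library as FPKM, the same measure per gene. Levels are compared only within each of these depositions. Kmt2d stood at 8.89 RPKM and 10.7 FPKM in DKO ESC, against 13.5 RPKM and 18.7 FPKM in f/f ESC. In bodies it stood at 14.3 RPKM and 10.1 FPKM in DKO, against 16.4 RPKM and 15.4 FPKM in f/f. Neither difference passed the test described below (limma adjusted p = 0.155 in ESC and 0.388 in bodies). Kmt2d was higher in the MEF library labelled DKO, at 23.5 FPKM against 14.4 FPKM in f/f, and at day 20, at 24.8 FPKM against 12.9 FPKM in f/f. These values count the whole transcript and cannot show whether the deleted part is missing, so the genotypes of all libraries rest on their labels. All 6 pluripotency markers were at 1 or more in each ESC and bodies library. At day 20 the fibroblast markers summed to 9589 FPKM in the DKO library and 13220 FPKM in the f/f library. Of the pluripotency markers, 1 of 6 in the DKO library and 3 of 6 in the f/f library reached 1 FPKM at day 20, and Zfp42 stood at 0 and 0.0666 FPKM. Nanog was counted in both, at 9.68 FPKM in DKO and 5.49 FPKM in f/f, but was already at 7.17 and 7.26 FPKM in MEF. The others in f/f were Pou5f1, which encodes Oct4, at 19.75 FPKM and Sox2 at 9.36 FPKM. Whether these reads came from the introduced factors was not tested.

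In ESC and bodies a small core of chains made up most of the integrin and laminin RNA. Itgb1, the beta chain shared by most matrix receptors, was the highest beta chain in all 12 libraries and held 63.4% to 85.4% of the summed beta chain value. Its level was 55.3 RPKM and 70.3 FPKM in DKO bodies, 77.6 RPKM and 96.6 FPKM in f/f bodies, 51.2 RPKM and 95.7 FPKM in DKO ESC, and 42.1 RPKM and 84.5 FPKM in f/f ESC. The laminin trimer with the highest chain of each class was Lama5, Lamb1 and Lamc1 in every ESC and bodies library. Lamc1, the gamma chain of most laminins, held 88.2% to 99.8% of the gamma chain value over the 12 libraries. Lama5 held 72.0% to 93.7% of the laminin alpha value in ESC and bodies.

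The leading integrin alpha chain differed between groups. Itga6, a laminin receptor chain known as a stem cell surface marker, led in DKO bodies with 57.5 RPKM and 33.1 FPKM, in DKO ESC with 33.7 RPKM and 50.1 FPKM, and in f/f ESC with 23.8 RPKM and 33.5 FPKM. In f/f bodies Itga6 stood at 26.9 RPKM and 26.3 FPKM, below Itga3 in both libraries. Itga3, the alpha chain of the main laminin receptor of epithelia, stood there at 42.1 RPKM and 38.2 FPKM. Itga5, the fibronectin receptor chain, ranged over the ESC and bodies libraries between 11.2 and 25.6 RPKM and between 11.6 and 36.3 FPKM. Itgav, the chain of the vitronectin receptors, was lower, at 5.93 to 10.4 FPKM.

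The fibroblast and day-20 libraries had more Itgb1 than the FPKM libraries of ESC and bodies, and other leading alpha chains. Itgb1 stood at 419 FPKM in DKO and 269.6 FPKM in f/f at day 20, and at 415 FPKM in DKO and 329 FPKM in f/f MEF. Lamc1 was at 42.9 to 69.2 FPKM in these 4 libraries, against 34.6 to 67.2 FPKM in ESC and bodies. Lama4, the laminin alpha chain of vessels and mesenchyme, was the highest laminin alpha chain in all 4. Itga11, a collagen receptor chain of fibroblasts, was the highest integrin alpha chain in both f/f libraries, at 105.3 FPKM at day 20 and 82.7 FPKM in MEF. In the 2 libraries labelled DKO the highest was Itga7, better known as the laminin receptor chain of muscle. Lamb1 was the highest laminin beta chain except in f/f MEF, where Lamb2 stood at 56.5 FPKM and Lamb1 at 49.9 FPKM.

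**Figure D1:**
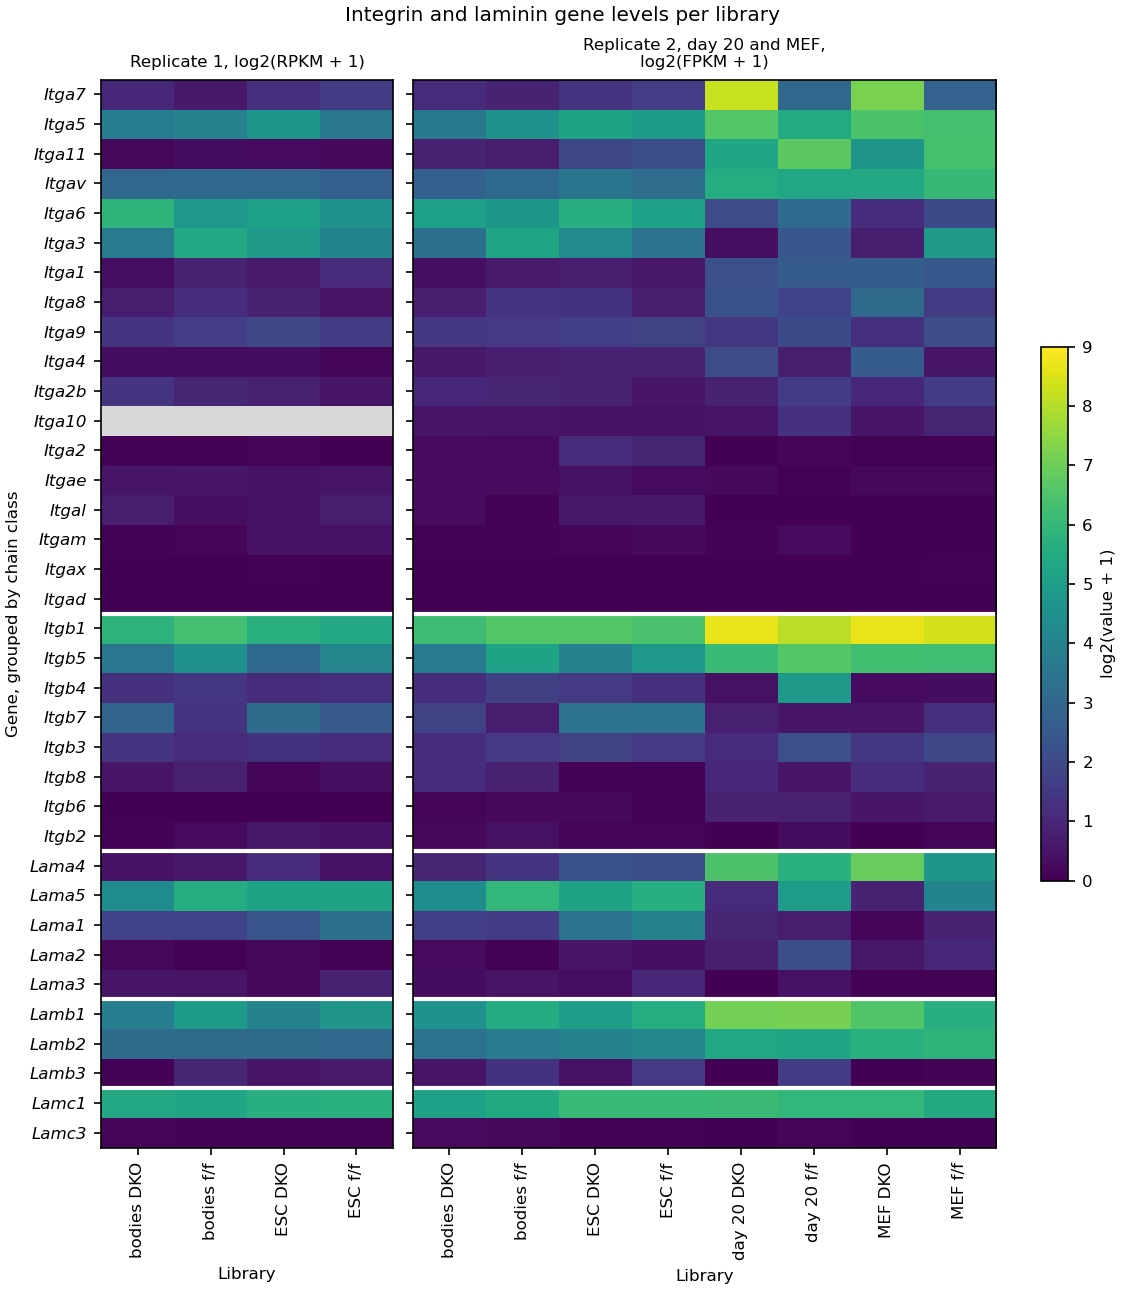
Level of 36 of the 37 genes in each library as log2(value + 1), with RPKM in the left panel (replicate 1 of bodies and ESC) and FPKM in the right panel (replicate 2, day 20 and MEF). Rows are grouped by chain class, grey marks Itga10, which has no transcript in the RPKM files, and the core chains Itgb1, Itgb5, Itga5, Lamb1 and Lamc1 are at 10 FPKM or more across the right panel.

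Of the 37 genes, 10 were at 1 FPKM or more in each of the 8 FPKM libraries, namely Itga5, Itga6, Itga9, Itgav, Itgb1, Itgb3, Itgb5, Lamb1, Lamb2 and Lamc1. Another 8 were under 1 in every one of the 12 libraries. These were Itgad, Itgae, Itgal, Itgam, Itgax and Itgb2, which are integrin chains of leukocytes, with Itgb6, an epithelial chain, and Lamc3. Of 10 leukocyte markers, Ptprc, which defines these cells, was at or below 0.0767 in all libraries, and Cd48 at or below 0.133. Others were present in ESC, where Laptm5 was at 12.05 to 36.1 RPKM and 43.1 to 124.7 FPKM and Lyz2 at 31.1 to 40.7 RPKM and 7.98 to 9.75 FPKM. The leukocyte markers summed to 51.3 to 90.5 RPKM and 66.3 to 146.5 FPKM in ESC. In these bulk samples fewer cells of a type and less RNA per cell cannot be told apart.

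For the tests, 19 of the 37 genes had a mean of at least 1 over the 8 ESC and bodies libraries, as had 12466 genes in all. The 19 comprised 7 integrin alpha, 5 integrin beta, 3 laminin alpha, 2 laminin beta and 2 laminin gamma chains. The other 18 were not tested, and 8 of them reached 1 FPKM in a MEF or day-20 library. Changes are differences of log2(value + 1) with the standard error (SE) of the fit, averaged over the 2 depositions, and this scale understates changes of low genes. A gene is said to have risen or fallen where limma's p-value, adjusted over all 12466 genes, was under 0.05. Over the comparisons of ESC and bodies 11 changes passed, and all 11 missed the threshold when the deposition was left out of the model or when genes of any level were tested.

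In ESC, the DKO cells had more Itga3 and less Itgb5. In all 3 of the 19 tested genes passed, against 4.24% of all genes tested, of which 1.57% were higher and 2.67% lower, and the median change was 0.14 for the 19 and 0.02 for all genes.

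Itga3 was at 28.4 RPKM and 18.1 FPKM in DKO ESC, against 15.7 RPKM and 9.34 FPKM in f/f ESC. The DKO library was the higher in each deposition, and Itga3 rose by 0.85 on the log2 scale (SE 0.16, limma adjusted p = 0.0423, n = 2 each). Itgb5, a beta chain that pairs with Itgav to bind vitronectin, was at 7.45 RPKM and 15.0 FPKM in DKO ESC, against 16.2 RPKM and 26.7 FPKM in f/f ESC. It was lower in the DKO library of each deposition and fell by 0.91 (SE 0.18, limma adjusted p = 0.0488). Lamb1, the beta chain of embryonic laminins, was at 15.3 RPKM and 31.1 FPKM in DKO ESC, against 24.7 RPKM and 46.1 FPKM in f/f ESC. Its change of -0.61 (SE 0.12) missed the threshold with limma adjusted p = 0.0505. Itga3 missed it with edgeR on reads (adjusted p = 0.0528) and with median-of-ratios scaling (limma adjusted p = 0.0524), settings in which Lamb1 passed. The count of 3 was 0 without either f/f ESC library, either DKO ESC library or either f/f bodies library, 2 without replicate 1 of DKO bodies and 3 without replicate 2.

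**Figure D2:**
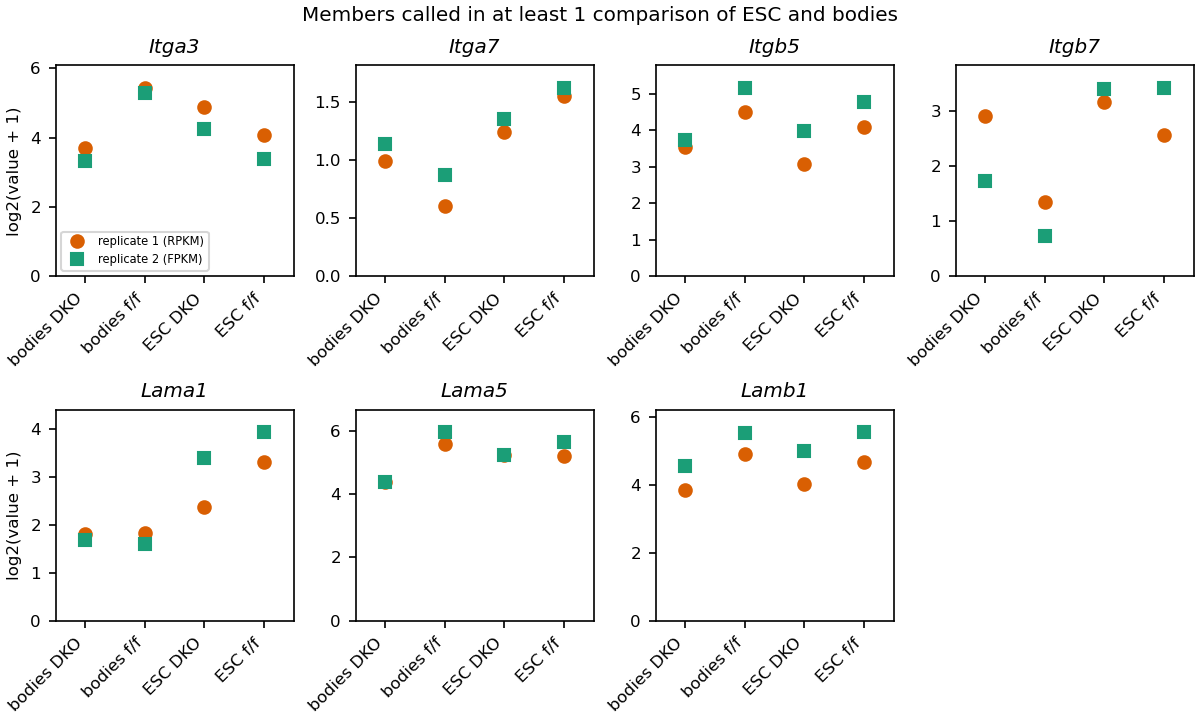
Values of 7 genes that passed the test in a comparison of bodies and ESC, as log2(value + 1) in each library, with circles for replicate 1 (RPKM) and squares for replicate 2 (FPKM). Itga3 is highest in f/f bodies and lowest in DKO bodies in both replicates, and Lama5 is lowest in DKO bodies in both replicates.

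In day-4 bodies, the DKO cells had less Itga3, Lama5, Lamb1 and Itgb5. These 4 of 19 genes fell and none rose, against 4.44% of all genes tested that passed in either direction, 3.61% lower and 0.826% higher. The median change was -0.18 for the 19 genes and -0.01 for all genes. Itga3 was at 12.04 RPKM and 8.98 FPKM in DKO bodies, against 42.1 RPKM and 38.2 FPKM in f/f bodies. The DKO library was the lower in each deposition, and Itga3 fell by 1.85 on the log2 scale (SE 0.16, limma adjusted p = 0.00886, n = 2 each).

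Lama5 was at 20.01 RPKM and 19.997 FPKM in DKO bodies, against 46.4 RPKM and 60.99 FPKM in f/f bodies. In each deposition the DKO value was the lower, and Lama5 fell by 1.37 (SE 0.15, limma adjusted p = 0.0126). Lamb1 was at 13.3 RPKM and 22.7 FPKM in DKO bodies, against 28.8 RPKM and 45.1 FPKM in f/f bodies. It was lower in the DKO library of each deposition and fell by 1.01 (SE 0.12, limma adjusted p = 0.0135). Itgb5 was at 10.7 RPKM and 12.4 FPKM in DKO bodies, against 21.6 RPKM and 35.0 FPKM in f/f bodies. Its DKO value was also the lower in each deposition, and Itgb5 fell by 1.19 (SE 0.18, limma adjusted p = 0.0244).

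Of the other chains, Itga6, the laminin receptor chain that led in DKO bodies, had a change of 0.69 (SE 0.32, limma adjusted p = 0.274). Itgb7, a beta chain known from lymphocytes, was at 6.51 RPKM and 2.33 FPKM in DKO bodies, against 1.56 RPKM and 0.658 FPKM in f/f bodies. It was higher in the DKO library of each deposition, with a change of 1.28 that did not pass (SE 0.46, limma adjusted p = 0.185). Lamc1 changed by -0.11 (SE 0.18), so that the third chain of the leading laminin trimer had no change past the test while Lama5 and Lamb1 fell. The count of 4 was 0 without either f/f bodies library, 3 without replicate 1 of DKO bodies or either f/f ESC library, 4 without either DKO ESC library and 5 without replicate 2 of DKO bodies.

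The promoters of the 4 genes that fell in DKO bodies are shown because these genes moved together. Each window covers 300 bases around a start site from RefSeq (build GRCm38.p6). Set against the outer end of each gene, the Itgb5 and Lama5 windows lie mostly upstream, and the Itga3 and Lamb1 windows mostly inside the gene. Capitals mark GGGCGG or its reverse complement CCGCCC, the GC box. The windows lie at chr11:95076665-95076964 on the minus strand for Itga3, chr16:33829415-33829714 on the plus strand for Itgb5, chr2:180225810-180226109 on the minus strand for Lama5 and chr12:31265043-31265342 on the plus strand for Lamb1.
Itga3: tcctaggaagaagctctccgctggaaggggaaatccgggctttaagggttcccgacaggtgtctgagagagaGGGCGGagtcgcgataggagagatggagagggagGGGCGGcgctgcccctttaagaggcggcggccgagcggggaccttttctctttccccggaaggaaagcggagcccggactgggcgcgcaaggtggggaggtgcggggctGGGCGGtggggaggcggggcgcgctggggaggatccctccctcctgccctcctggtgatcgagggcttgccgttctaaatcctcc
Itgb5: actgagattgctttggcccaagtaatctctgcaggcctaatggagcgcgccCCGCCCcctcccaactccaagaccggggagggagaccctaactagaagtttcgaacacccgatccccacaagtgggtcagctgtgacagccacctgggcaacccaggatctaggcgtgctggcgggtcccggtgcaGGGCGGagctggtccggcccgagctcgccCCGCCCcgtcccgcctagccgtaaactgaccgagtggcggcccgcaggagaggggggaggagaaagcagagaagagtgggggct
Lama5: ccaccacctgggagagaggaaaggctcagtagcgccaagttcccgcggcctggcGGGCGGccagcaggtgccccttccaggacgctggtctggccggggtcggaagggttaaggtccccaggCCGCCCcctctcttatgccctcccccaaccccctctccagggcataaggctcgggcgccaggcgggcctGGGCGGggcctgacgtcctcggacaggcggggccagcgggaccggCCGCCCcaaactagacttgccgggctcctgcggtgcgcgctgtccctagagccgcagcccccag
Lamb1: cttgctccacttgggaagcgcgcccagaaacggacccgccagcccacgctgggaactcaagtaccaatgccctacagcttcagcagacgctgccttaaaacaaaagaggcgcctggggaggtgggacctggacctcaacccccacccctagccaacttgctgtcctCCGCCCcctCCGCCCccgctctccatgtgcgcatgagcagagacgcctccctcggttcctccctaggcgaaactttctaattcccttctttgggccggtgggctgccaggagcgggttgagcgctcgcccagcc

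The 4 windows held 3, 3, 4 and 2 GC boxes in the order printed, and 35.9% of the 32544 distinct promoters of the same length in the table held at least 1. They had 24, 20, 24 and 18 CpG dinucleotides, against a median of 11 over the 26 windows listed for 23 of the 37 genes and of 7 over all promoters. None of the 4 held the TATA box TATAAA, the AP-1 site TGANTCA (N is any base) or the E-box CACGTG on either strand. Of all promoters, 13.6% held TATAAA, 7.79% held TGANTCA and 7.17% held CACGTG. A second Itga3 window in the table held 1 GC box and 5 CpG. These matches describe the letters of the windows only.

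Some markers of epithelia and endoderm were lower in DKO bodies, as were the genes that fell, and pluripotency markers differed too. Of 6 markers of simple epithelium, 3 fell, namely Cdh1, Cldn3 and Krt19, and none rose. Their summed level was 160.3 RPKM and 237.6 FPKM in DKO bodies, against 541.8 RPKM and 872.2 FPKM in f/f bodies. The 9 extraembryonic endoderm markers summed to 10.9 RPKM and 20.8 FPKM in DKO bodies, against 37.8 RPKM and 57.4 FPKM in f/f bodies, and Gata4 and Gata6 fell. Most of the f/f sums came from Lrp2, at 21.35 RPKM and 37.9 FPKM, which did not pass. The 10 fibroblast markers summed to 17.2 RPKM and 29.3 FPKM in DKO bodies, against 27.01 RPKM and 68.3 FPKM in f/f bodies. Of these only Thy1 fell, as 1 of 9 tested, at 8.19 RPKM in DKO and 16.7 RPKM in f/f bodies. Thy1 was also higher in f/f ESC (27.8 FPKM) than in f/f MEF (3.37 FPKM). Some others, Col1a2 among them, were higher in DKO bodies by RPKM (2.33 against 2.03) and lower by FPKM (7.61 against 10.3). All 6 epithelial markers were at 1 or more in each bodies library. Epcam differed little, at 89.6 RPKM and 120.5 FPKM in DKO bodies, against 103.0 RPKM and 123.3 FPKM in f/f bodies. Of the 6 pluripotency markers 1 fell and none rose, with a median change of 0.57. Zfp42 was at 152.7 RPKM and 82.3 FPKM in DKO bodies, against 62.1 RPKM and 19.7 FPKM in f/f bodies. Nanog, Sox2 and Esrrb were also higher in DKO in each deposition, Pou5f1 was lower in each, and Tdgf1 differed in direction. The part of these cell types in the changes of Itga3, Lama5, Lamb1 and Itgb5 was not tested. In ESC the epithelial markers summed to 190.2 RPKM and 142.4 FPKM in DKO, against 278.6 RPKM and 264.5 FPKM in f/f, while Itga3 was higher in DKO. The leukocyte markers summed there to 90.5 RPKM and 146.5 FPKM in DKO, against 51.3 RPKM and 66.3 FPKM in f/f, and none of the 3 tested passed.

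In f/f cells, bodies had more Itga3 and less Lama1, Itga7 and Itgb7 than ESC. These were 1 gene higher and 3 lower of 19, against 12% of all genes tested, of which 8.13% were higher and 3.86% lower. The split of all genes was 1014 higher and 481 lower, and 837 higher and 697 lower with median-of-ratios scaling. The median change was close to 0 for the 19 genes and 0.06 for all genes.

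Itga3 was at 42.1 RPKM and 38.2 FPKM in f/f bodies, against 15.7 RPKM and 9.34 FPKM in f/f ESC, and rose by 1.65 (SE 0.16, limma adjusted p = 0.0135, n = 2 each). Lama1, the laminin alpha chain of the earliest embryonic basement membranes, was at 2.55 RPKM and 2.02 FPKM in f/f bodies, against 8.96 RPKM and 14.4 FPKM in f/f ESC. The bodies library was the lower in each deposition, and Lama1 fell by 1.92 (SE 0.32, limma adjusted p = 0.0215). Itga7 was at 0.520 RPKM and 0.832 FPKM in f/f bodies, against 1.95 RPKM and 2.09 FPKM in f/f ESC. It was low in all 4 libraries, with 39 reads in the first f/f bodies library and 144 reads in the first f/f ESC library. Itga7 fell by 0.85 (SE 0.16, limma adjusted p = 0.0280), and by 1.67 with edgeR, which adds no 1 to the values.

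Itgb7 was at 1.56 RPKM and 0.658 FPKM in f/f bodies, against 4.93 RPKM and 9.78 FPKM in f/f ESC, and fell by 1.96 (SE 0.46, limma adjusted p = 0.0449). The bodies library was again the lower in each, but the change was -2.65 when replicate 1 of f/f ESC was left out and -1.26 when replicate 2 was. The count of 4 was 0 without any 1 of the 4 f/f libraries, 2 without either DKO ESC library and 6 without either DKO bodies library. Markers of several cell types also differed between these stages. Of the 6 pluripotency markers 2 fell and none rose, with a median change of -0.89. Their sums were 859.8 RPKM and 904.7 FPKM in f/f bodies, against 1389 RPKM and 1896 FPKM in f/f ESC. Of the 6 simple epithelium markers 4 rose, with sums of 541.8 RPKM and 872.2 FPKM in f/f bodies, against 278.6 RPKM and 264.5 FPKM in f/f ESC. Of 7 tested extraembryonic endoderm markers 4 rose, with sums of 37.8 RPKM and 57.4 FPKM in f/f bodies, against 10.7 RPKM and 20.3 FPKM in f/f ESC. Of 3 tested leukocyte markers Lyz2 fell, and the list summed to 15.9 RPKM and 23.2 FPKM in f/f bodies, against 51.3 RPKM and 66.3 FPKM in f/f ESC. Fibroblast markers gave sums of 27.01 RPKM and 68.3 FPKM in f/f bodies, against 35.3 RPKM and 228.6 FPKM in f/f ESC. The mesenchymal chain Lama4 was at 0.479 RPKM and 1.64 FPKM in f/f bodies, against 0.341 RPKM and 3.47 FPKM in f/f ESC, so that it was higher in ESC only in the second deposition. The part of these cell types, feeder cells included, in the changes of Itga3, Lama1, Itga7 and Itgb7 was not tested.

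In DKO cells none of the 19 genes passed between bodies and ESC with limma. Of all genes tested, 0.826% passed, 0.201% higher and 0.626% lower. With edgeR on reads 1 passed. The median change was -0.41 for the 19 genes and 0.04 for all genes, and 17 of the 19 changes were below 0. Itga3 was at 12.04 RPKM and 8.98 FPKM in DKO bodies, against 28.4 RPKM and 18.1 FPKM in DKO ESC, a change of -1.06 (SE 0.16, limma adjusted p = 0.0508). It was lower in bodies in each deposition. Fibroblast markers summed to 17.2 RPKM and 29.3 FPKM in DKO bodies, against 47.6 RPKM and 192 FPKM in DKO ESC, and leukocyte markers to 21.3 RPKM and 22.4 FPKM in DKO bodies, against 90.5 RPKM and 146.5 FPKM in DKO ESC. Their part in these values was not tested.

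The effect of genotype was then compared between the stages. The change in bodies minus the change in ESC was -2.70 for Itga3 (SE 0.22, limma adjusted p = 0.0657) and -1.18 for Lama5 (SE 0.22, limma adjusted p = 0.126). None of the 19 genes passed this test with limma or with edgeR, and no gene of the 12466 passed with either tool. A difference between the stages was therefore not called for these genes in these fits, which had 2 libraries per group. Where each stage had its own deposition term, 3 of the 19 passed, among them Itga3 and Itgb1, in a setting that called 353 of all genes.

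**Figure D3:**
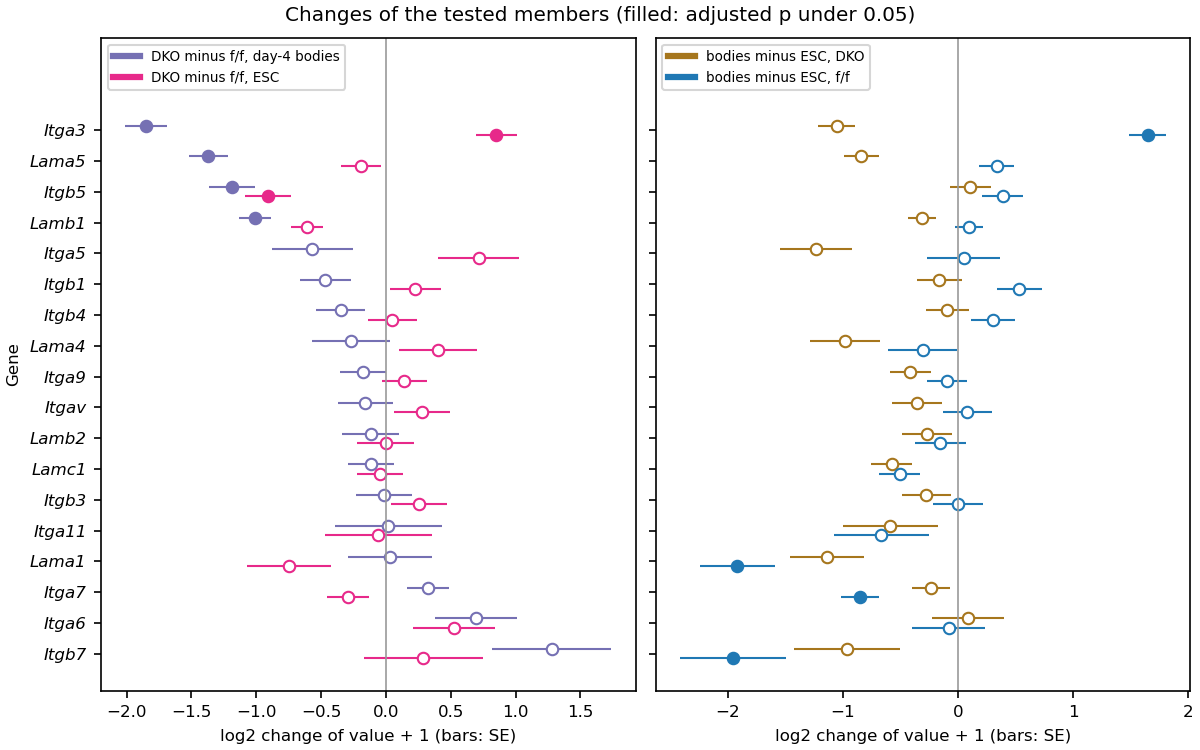
Change of 18 of the 19 tested genes as log2 of value + 1, with bars of 1 SE and filled points for adjusted p under 0.05. The left panel shows DKO minus f/f in bodies and in ESC, and the right panel shows bodies minus ESC in DKO and in f/f. Itga3 lies at -1.85 in bodies and 0.85 in ESC on the left, and at -1.06 in DKO and 1.65 in f/f on the right.

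As shares of their class, the same values show a different make-up of integrin alpha RNA in bodies. Itga3 held 12.5% of the RPKM and 13.4% of the FPKM of all alpha chains in DKO bodies, against 43.0% and 36.8% in f/f bodies. Itga6 held 59.8% and 49.5% in DKO bodies, against 27.5% and 25.3% in f/f bodies. Lama5 remained the main laminin alpha chain, at 85.1% and 84.9% in DKO bodies, against 93.1% and 93.7% in f/f bodies, although the summed laminin alpha value was 23.5 RPKM and 23.6 FPKM in DKO, against 49.9 RPKM and 65.1 FPKM in f/f.

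**Figure D4:**
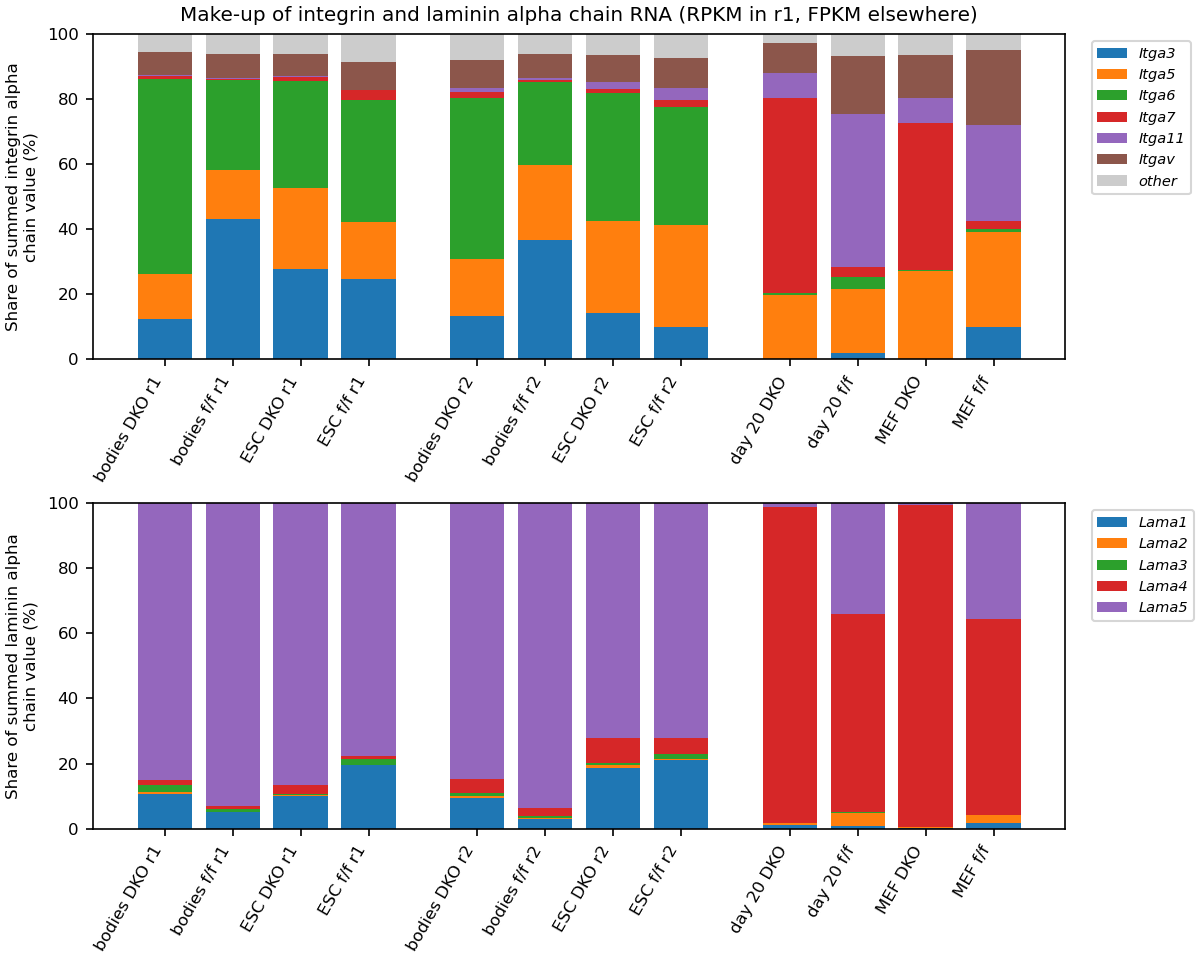
Share of each chain in the summed integrin alpha value (upper panel) and laminin alpha value (lower panel) of each library, in percent, with RPKM for r1 and FPKM elsewhere. Itga3 takes 12.5% and 13.4% in DKO bodies, against 43.0% and 36.8% in f/f bodies, and Lama4 takes 97.0% to 98.8% of laminin alpha in the DKO libraries of day 20 and MEF.

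Genes that work with integrins and laminins were read from 5 lists. In bodies, 4 of 20 tested genes of integrin activation and focal adhesion fell in DKO and none rose, against 3.61% of all genes lower and 0.826% higher. These were the cytoskeletal linkers Zyx (-1.52), Actn1 (-1.18) and Flna (-0.80) and the signalling adaptor Bcar1 (-1.04). The median change of the 20 was -0.51. Of 12 other basement membrane genes, against the same share of all genes, 4 fell and none rose, namely the matrix glycoprotein Sparc (-2.67), the heparan sulfate proteoglycan agrin or Agrn (-1.48), Tinagl1 (-1.30) and Frem2 (-1.05). Sparc was at 16.2 RPKM and 14.6 FPKM in DKO bodies, against 94.1 RPKM and 113.3 FPKM in f/f bodies. Dag1, which encodes the laminin receptor dystroglycan, fell by 0.84 as 1 of 9 other laminin receptor genes. None of 11 other integrin ligands and none of 5 integrin-associated tetraspanins passed.

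In ESC none of the 20 focal adhesion genes passed between DKO and f/f, against 1.57% of all genes higher and 2.67% lower. Of the 12 basement membrane genes, Frem2 (-1.39) and Agrn (-0.95) fell. Sdc2, a syndecan, rose by 0.89 as 1 of 9 laminin receptor genes, and Cd37 (-1.11) fell as 1 of 5 tetraspanins, while none of the 11 ligands passed. Between bodies and ESC of f/f cells, 4 of the 20 focal adhesion genes rose, among them Bcar1 (1.37) and Zyx (1.00), and Tns3 (-1.71) and Parvb (-1.43) fell, against 8.13% of all genes higher and 3.86% lower. The ligands tenascin C or Tnc (-2.83) and Icam1 (-2.10) fell in the same comparison, Sdc2 (0.90) and Cd151 (0.60) rose and Cd37 (-1.80) fell. None of the 12 basement membrane genes passed there, and between bodies and ESC of DKO cells no gene of any of the 5 lists passed.

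Fibroblasts and day-20 cells had 1 library per group, so their differences have no replicate check and no test. A gene is named where log2(FPKM + 1) differed by at least 2-fold, and 21 of the 37 genes, among 12281 in all, had the required mean of 1 FPKM over the 4 libraries. Ratios of FPKM are given with a 95% interval that covers the counting error of the reads only.

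In MEF, the library labelled DKO had more of the laminin receptor chain Itga7 and less of Itga3 and Lama5. In all, 4 of 21 genes were higher and 3 lower, against 3.72% of all genes higher and 5.17% lower, and the median difference was -0.01 for the 21 genes and 0.04 for all. Itga7 was at 144.5 FPKM in the library labelled DKO, against 6.06 FPKM in the f/f library, which is 23.9 times higher (22.1 to 25.8). The reads behind it numbered 22229 in the library labelled DKO and 704 in the f/f library. Itga4, a receptor chain for fibronectin and Vcam1, was at 5.19 FPKM against 0.454 FPKM in f/f, and Lama4 at 118.3 FPKM against 26.5 FPKM in f/f. Itga8, a receptor chain for nephronectin, was at 7.71 FPKM against 1.99 FPKM in f/f. These ratios were 11.4 for Itga4 (9.57 to 13.8), 4.47 for Lama4 (4.33 to 4.61) and 3.87 for Itga8 (3.44 to 4.37).

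Itga3 was at 0.673 FPKM in the MEF library labelled DKO, against 28.1 FPKM in f/f, 41.8 times lower (35.0 to 50.3). Lama5 was at 0.817 FPKM against 15.7 FPKM in f/f, 19.2 times lower (17.2 to 21.5), and the collagen receptor chain Itga11 at 24.2 FPKM against 82.7 FPKM in f/f, 3.42 times lower (3.30 to 3.55). Lama4 thereby made up 98.8% of laminin alpha FPKM in the library labelled DKO and 60.1% in the f/f library. Fibroblast markers differed as well, with sums of 2747 FPKM in the library labelled DKO and 3311 FPKM in f/f. Of the 10, 5 were lower past 2-fold, among them Lum at 2.00 FPKM against 52.7 FPKM in f/f and Col1a1 at 355.9 FPKM against 1345 FPKM in f/f. Some others were higher, among them Col1a2 at 1720 FPKM against 1387 FPKM in f/f and Col3a1 at 516.4 FPKM against 361.6 FPKM in f/f. With 1 library each, the genotype and any other difference between the 2 fibroblast lines cannot be told apart.

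At day 20 more genes were past 2-fold than in MEF, 10 against 7 of the 21 and 18.7% against 8.89% of all genes. Of the 7 genes named in MEF, Itga7 and Lama5 had a larger ratio at day 20. Itga3, Itga4, Itga11, Lama4 and Itga8 had a smaller one, and Lama4 (1.68) and Itga8 (1.52) were under 2-fold. Of the 21 genes, 3 were higher and 7 lower in the library labelled DKO, against 8.26% of all genes higher and 10.4% lower, with a median of -0.41 for the 21 genes and 0.04 for all. Itga7 was at 300.5 FPKM against 7.06 FPKM in f/f, 42.6 times higher (39.5 to 45.9), and held 59.8% of the integrin alpha FPKM against 3.14% in f/f. Itga4 was at 3.31 FPKM against 0.675 FPKM in f/f, 4.90 times higher (4.14 to 5.84). Itga5 was at 98.6 FPKM against 44.4 FPKM in f/f, 2.22 times higher (2.14 to 2.30).

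By ratio, Itgb4, Lama5 and Itga3 were the furthest below f/f of the 21 genes in the day-20 library labelled DKO. Itgb4, the beta chain of hemidesmosomes, was at 0.325 FPKM against 27.3 FPKM in f/f, 83.9 times lower. Lama5 was at 1.11 FPKM against 29.8 FPKM in f/f, 26.9 times lower (24.0 to 30.4), and Itga3 at 0.273 FPKM against 4.45 FPKM in f/f, 16.3 times lower (11.4 to 24.2). Itga6, the usual partner of Itgb4, was at 3.22 FPKM against 7.91 FPKM in f/f, 2.45 times lower. Lama2, the laminin alpha chain of muscle and nerve, was at 0.690 FPKM against 3.47 FPKM in f/f, 5.02 times lower (4.24 to 5.99). Itgb3, a partner of Itgav, was at 1.101 FPKM against 3.58 FPKM in f/f, 3.25 times lower (2.71 to 3.94). Itga11 was at 39.5 FPKM against 105.3 FPKM in f/f, 2.67 times lower (2.58 to 2.76). No reads could be recovered for Itgb4 and Itga6, so they have no interval.

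Lamb3, a laminin beta chain of skin, did not reach the mean of 1 FPKM. It was at 0.0205 FPKM in the day-20 library labelled DKO, against 1.94 FPKM in f/f. Lama3, also under that mean, was at 0.00413 FPKM (1 read) in the library labelled DKO, against 0.348 FPKM (90 reads) in f/f. Epithelial markers differed in the same direction as Itgb4, Itga3 and Lamb3 between the day-20 libraries. The 5 markers of stratified epithelium summed to 1.78 FPKM in the library labelled DKO and 59.1 FPKM in f/f, of which the keratin Krt14 gave 0.154 and 55.9 FPKM. The 6 markers of simple epithelium summed to 0.243 FPKM in the library labelled DKO, where none reached 1 FPKM, and to 43.6 FPKM in f/f, where 5 did. In f/f MEF the 6 simple epithelium markers summed to 2.96 FPKM, while Itga3 was at 28.1 FPKM, against 4.45 FPKM in f/f at day 20. Itga3 and these markers thus differed in opposite directions between f/f MEF and f/f day 20. The part of epithelial cells in the day-20 differences was not tested.

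**Figure D5:**
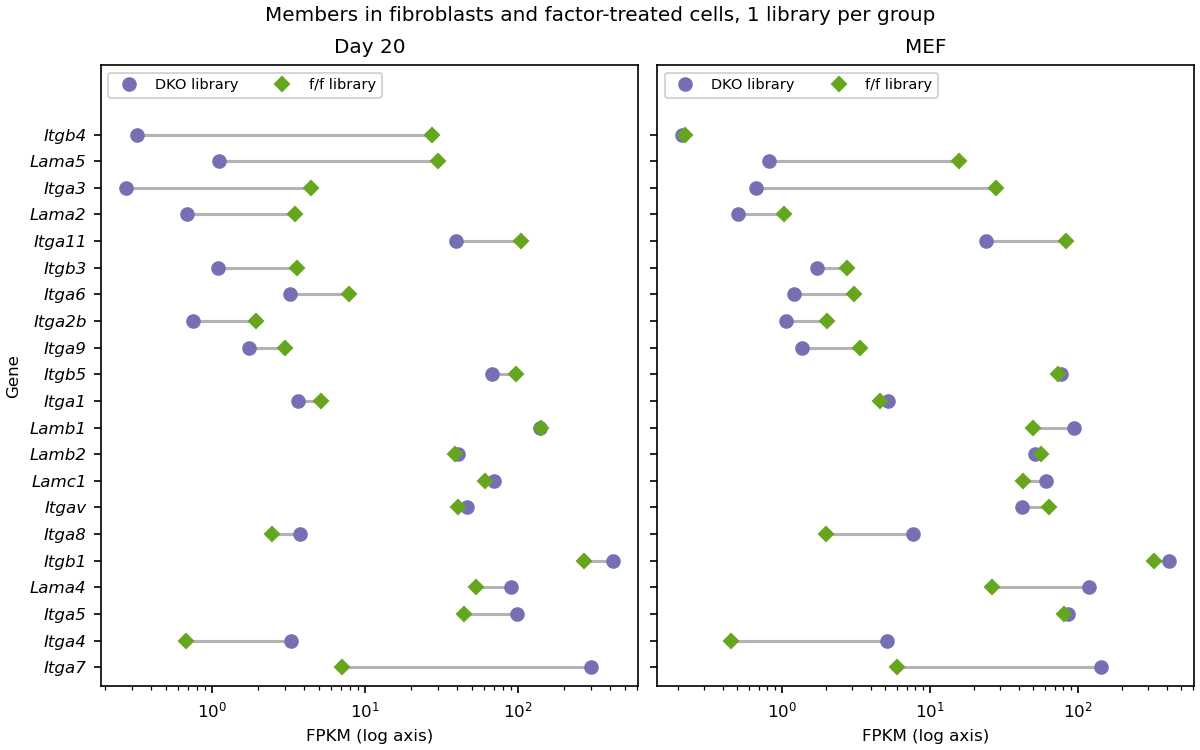
FPKM on a log axis of the 21 genes with a mean of at least 1 FPKM over the 4 libraries, at day 20 (left) and in MEF (right), with circles for the library labelled DKO and diamonds for f/f, 1 library each. Itga7 stands at 300.5 and 144.5 FPKM in the libraries labelled DKO, against 7.06 and 6.06 FPKM in f/f, while Itgb4 stands at 0.325 FPKM in the library labelled DKO against 27.3 FPKM in f/f at day 20, and at 0.212 against 0.224 FPKM in MEF.

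Day 20 was also set against MEF within each genotype, using the same 4 libraries. In f/f cells 4 of the 21 genes were higher at day 20 and 1 was lower, against 6.31% of all genes higher and 5.66% lower. Itgb4 was at 27.3 FPKM at day 20, against 0.224 FPKM in MEF, 122 times higher. Lamb1 was at 140.6 FPKM at day 20, against 49.9 FPKM in MEF, 2.82 times higher (2.75 to 2.89). Lama2 and Itga6 were 3.33 and 2.57 times higher at day 20 than in MEF, and Itga3 was 6.32 times lower (5.78 to 6.94), at 4.45 FPKM at day 20 against 28.1 FPKM in MEF. Itga3 and Itgb4, both chains of epithelial laminin receptors, thus differed in opposite directions between these 2 libraries.

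In the libraries labelled DKO, Itga7 was the single gene of the 21 past 2-fold, at 300.5 FPKM at day 20 against 144.5 FPKM in MEF, 2.08 times higher (2.04 to 2.12). Of all genes, 4.08% were higher and 3.63% lower. Itgb4 was at 0.325 FPKM at day 20 and 0.212 FPKM in MEF, and Itga3 at 0.273 FPKM at day 20 and 0.673 FPKM in MEF, so that both stayed under 1 FPKM in these libraries.

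The ligands of integrins also differed between these libraries. At day 20, 3 of 12 were higher and 6 lower in the library labelled DKO, against 8.26% of all genes higher and 10.4% lower. Spp1, or osteopontin, was at 104.6 FPKM against 2158 FPKM in f/f, and Thbs1, a thrombospondin, at 246.1 FPKM against 1382 FPKM in f/f. Vcam1, a ligand of Itga4, was at 34.4 FPKM against 6.80 FPKM in f/f, and Icam1, a ligand of leukocyte integrins, at 0.168 FPKM against 7.18 FPKM in f/f. In MEF, 3 ligands were higher and 3 lower in the library labelled DKO, against 3.72% of all genes higher and 5.17% lower, among them Spp1 at 40.2 FPKM against 267.1 FPKM in f/f and Tnc at 454.2 FPKM against 120.7 FPKM in f/f.

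Of 20 focal adhesion genes, 6 were higher and 1 lower in the day-20 library labelled DKO, and 0 were higher and 1 lower in MEF. The shares of all genes given for the ligands at day 20 and in MEF apply to these lists too. The largest differences at day 20 were in the parvin gene Parvb, at 30.1 FPKM against 3.05 FPKM in f/f, and in Tns1, which encodes tensin, at 4.58 FPKM against 29.7 FPKM in f/f. Of 13 other basement membrane genes, 1 was higher and 3 lower at day 20 and 2 higher and 4 lower in MEF. Among 5 tetraspanins 2 were lower at day 20 and 3 in MEF, and among 8 other laminin receptor genes 2 were lower at day 20 and 1 in MEF, with none higher. Cd151, the tetraspanin that binds laminin-receptor integrins, was at 10.6 FPKM at day 20 and 11.5 FPKM in MEF in the libraries labelled DKO, against 31.3 FPKM at day 20 and 42.2 FPKM in MEF in f/f.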

How the data were processed

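RNA was measured in 12 of the 36 samples of the series. The other 24, from chromatin and input, were not used here. Per the file headers, the authors deposited read counts and RPKM per RefSeq transcript for 4 libraries (replicate 1 of ESC and bodies) and FPKM per Entrez gene for the other 8. The submitters' processing notes name mm9 for both depositions, CASAVA 1.8.2 for the second, and bedtools 2.16 and SICER 1.1 among the tools of the first. The sources used here do not give the aligner, annotation release, strand setting or treatment of shared reads, so overlapping and antisense genes are uncertain.

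Of 29082 transcripts, 28436 matched a gene by accession, and the transcript with the most counts stood for a gene. Depth was recovered from the counts and from steps of low FPKM values, of which 91.0% to 92.5% were whole reads within 0.02 reads. Values were tested as log2(value + 1) with limma 3.58.1 (R 4.3.3, trend, two-sided, Benjamini-Hochberg adjustment) over the 8 ESC and bodies libraries, with stage and genotype groups and the deposition as terms. This left 3 residual degrees of freedom. The deposition is the replicate number, and same-numbered libraries deviated together (correlations of 0.864 to 0.954 across genes). The depositions hold different measures, per transcript and per gene, which can give such correlations by itself. They therefore cannot show whether same-numbered samples were paired. edgeR 4.0.16 on reads, other pseudocounts, filters and scalings, and leaving out each library were alternatives. With 1 library a group, genes past 2-fold are named without a test.

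Every gene of the rule enters the fits and counts, and some results are not reported here. Full values are given for those that passed a test, differed past 2-fold or led their class, and at most 4 genes are named for each list. The integrins and laminins, the other lists and the tests were chosen with earlier results of these data known.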

Additional observations from a re-analysis of the deposited data

Results flagged for a closer look

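For 6 of the tested genes, the difference between DKO and f/f had opposite signs in bodies and in ESC in both depositions. The change in bodies minus the change in ESC was -2.70 for Itga3, -1.28 for Itga5, -0.695 for Itgb1, -0.675 for Lama4, -0.438 for Itgav and 0.617 for Itga7 (log2 scale). None passed the test of this difference (limma adjusted p = 0.0657 for Itga3, 0.296 for Itga5, 0.351 for Itgb1, 0.556 for Lama4, 0.591 for Itgav and 0.328 for Itga7). Itga3 had a change of -1.85 in bodies and 0.85 in ESC, each past the threshold on its own.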

How the results depend on the processing

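The 11 changes that passed kept their direction in all 17 alternatives (9 of processing and 8 that leave out a library). All 11 passed with pseudocounts of 0.1 and 0.5, quantile scaling and summed transcripts. With median-of-ratios scaling and with edgeR 10 passed, without Itga3 in ESC. Genes under the minimum level were not tested, and depth limits what can be said of them.

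The replicate block takes up the difference between the depositions. Without it, 0 of the 19 genes and 0 of all genes passed between the genotypes in ESC, and 0 and 2 in bodies. For bodies against ESC, 0 and 0 passed in f/f, and 1 of all genes in DKO. With a replicate block within each stage, 5 and 1428 passed in ESC, 7 and 1524 in bodies, 1 and 280 for the stages in DKO, and 3 and 353 for the difference between stages. With no filter on low values, 0 and 0 passed in ESC, 0 and 23 in bodies, 0 and 14 for the stages in f/f, 15 of all genes in DKO and 4 for the difference between stages. The cause was not tested.

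For the stages in DKO, 1 of the 19 passed with pseudocount 0.5, median-of-ratios scaling, quantile scaling or edgeR. With a minimum of 5 FPKM, 6 genes were past 2-fold at day 20 and 3 between day 20 and MEF in f/f. Between day 20 and MEF in DKO, 4 were past it with pseudocount 0.1 and 2 with 0.5.

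Leaving out each library gave 0 to 3 of the 19 and 0 to 743 of all genes in ESC, 0 to 5 and 0 to 799 in bodies, 0 to 6 and 0 to 1886 for the stages in f/f, and 0 to 1 and 0 to 111 in DKO. The lone library of a group was then assumed to vary like the others.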
